A study of Homo sapiens with 6 samples.

Results

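The genes described here encode receptors of the tumour necrosis factor (TNF) family, together with the adaptors, the initiator caspase and the caspase inhibitor that assemble on them. All of these receptors except TNFRSF1B have a death domain and can signal cell death. They are 10 of the 18625 genes in the table of NB4 cells: TNFRSF1A, TNFRSF1B, TNFRSF10A, TNFRSF10B, FAS, FADD, CASP8, TRADD, TRAF2 and CFLAR. They were chosen by gene symbol, with the values of these same libraries under Tan I and DMSO in view, so the difference between the treatments in these genes is a description. Intervals and calls given for them describe the spread between libraries and are not a test of the members. All 10 symbols had a row, and all 10 were kept by the minimum set for testing, an average of 10 normalized counts over the 6 libraries. NB4 is an established human cell line of acute promyelocytic leukemia that carries the PML-RARA fusion, which both groups share. Cells were kept for 3 days either with DMSO, the solvent, or with Tan I, a compound of the herb Salvia miltiorrhiza, at 10 μM, and 3 RNA-seq libraries were made per group. All libraries come from this 1 line, and nothing in the labels says that the replicates came from separate cultures, so every error below measures only the spread between these libraries, which may be technical.

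TNF acts on TNFRSF1A (TNFR1), which has a death domain, and on TNFRSF1B (TNFR2), which has none and is best known from lymphoid and mature myeloid cells. TNFR1 recruits TRADD, TRAF2 and ubiquitin ligases into a membrane complex that activates NF-kB, and a later complex with FADD and CASP8 can activate caspases. FAS and the TRAIL receptors TNFRSF10A and TNFRSF10B bind FADD directly, FADD brings in CASP8, and CFLAR (c-FLIP), a relative of CASP8 without protease activity, limits its activation.

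The promoters of the paired TNF receptors are shown because these genes bind the same ligand, lay near opposite ends of the members' levels, and of the pair only TNFRSF1B stood above DMSO in every Tan I library. Both sequences are from RefSeq (GRCh38.p14) and run 5′ to 3′ on the gene's own strand, from 250 bases before to 50 bases after the annotated start, with each CG dinucleotide in capitals. The window of TNFRSF1A lies at chr12:6342027-6342326 on the minus strand, and that of TNFRSF1B at chr1:12166741-12167040 on the plus strand.
TNFRSF1A: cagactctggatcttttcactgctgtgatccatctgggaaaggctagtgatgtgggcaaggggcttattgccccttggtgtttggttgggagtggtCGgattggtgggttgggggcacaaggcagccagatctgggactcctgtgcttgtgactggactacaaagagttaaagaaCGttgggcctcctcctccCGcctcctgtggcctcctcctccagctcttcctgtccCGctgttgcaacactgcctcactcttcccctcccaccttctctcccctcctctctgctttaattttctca
TNFRSF1B: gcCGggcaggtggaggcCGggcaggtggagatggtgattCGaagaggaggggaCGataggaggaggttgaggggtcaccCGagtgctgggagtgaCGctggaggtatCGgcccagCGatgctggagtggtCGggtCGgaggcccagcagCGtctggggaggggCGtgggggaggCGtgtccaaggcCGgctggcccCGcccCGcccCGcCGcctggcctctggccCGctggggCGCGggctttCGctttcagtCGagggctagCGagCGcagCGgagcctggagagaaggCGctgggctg

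The TNFRSF1A window held 4 CG dinucleotides and the TNFRSF1B window 27, against a median of 14 over the 35116 promoters of the same length that were read. Windows on chromosome 8, where TNFRSF10A and TNFRSF10B lie, were not read. Shares of all promoters below are over those 35116. The GC box (GGGCGG, searched on both strands with overlapping matches counted) occurred 2 times in the TNFRSF1B window and 0 times in that of TNFRSF1A. Of the 14 windows found for 7 members (CASP8, CFLAR, FADD, FAS, TNFRSF1A, TNFRSF1B and TRAF2), 9 held a GC box, which 45.0% of all promoters held. The motif TATAAA was found in 1 of the 14 at a CASP8 start, against 11.5% of all promoters, and the NF-kB consensus in 2, against 11.3%. The windows of TRAF2 (44) and FADD (36) held the most CG dinucleotides. The 3 CASP8 starts held 5 or 6, and the 4 CFLAR starts 0, 1, 21 and 22. No methylation or factor binding was measured, so these letters are a description only.

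Each DMSO library held 25356503 to 31679138 reads on the genes of the table and each Tan I library 21502760 to 24298627, and the authors' size factors from 0.750 to 1.28. Values below are normalized counts, which are reads divided by the library's size factor, and bulk RNA cannot tell fewer cells of a type from less RNA per cell. The libraries of a group did not lie close together. The first principal component over the tested genes held 70.8% of the variance and set DMSO replicate 2 (score 41.1) and Tan I replicate 3 (71.6) apart from DMSO replicates 1 and 3 (-48.0 and -26.7) and Tan I replicate 1 (-46.8), with Tan I replicate 2 at 8.65. Promyelocyte markers were present, 7 of 8 listed, with a summed level of 74470 to 81140 in DMSO and 44830 to 53150 in Tan I. Most of that sum was MPO (means of 62590 and 36600). MPO, CTSG (1909 and 1199) and MYB (3424 and 2742) were each lower in every Tan I library. AZU1, PRTN3, CD33 and CEBPE overlapped between the groups, and CD33 had means of 3712 and 3903. Of the monocyte or macrophage markers 3 of 5 were listed, at a summed 26.1 to 34.7 in DMSO and 34.8 to 57.7 in Tan I. The summed T cell markers (3 of 4 listed) ran from 319.8 to 478.7 in DMSO and 353.8 to 620.1 in Tan I, the B cell markers (2 of 3) from 170.5 to 178.9 and 159.1 to 172.0, and the fibroblast or epithelial markers (3 of 4) from 325.4 to 448.8 and 341.1 to 510.8. Of the T cell markers, CD2 was higher in every Tan I library (means of 61.55 and 80.55), while CD3D and CD3E overlapped between the groups. The erythroid list (1 of 4) stood at 15.4 to 51.3 and 10.7 to 28.4, and the megakaryocyte list (1 of 3, ITGA2B) at 1060 to 1127 and 1332 to 1418. The part of these markers in the members' values was not tested.

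Per length of transcript, TRAF2, TNFRSF1A and TNFRSF10B stood highest and TNFRSF1B lowest. Levels were expressed as TPM, a share of all transcripts that allows for transcript length, computed here from the reads and the length of each gene's canonical GENCODE 44 transcript. In DMSO, TRAF2, an adaptor that recruits ubiquitin ligases, led with 46.3 ± 1.59 TPM (SD, n = 3), above 84.3% of the listed genes. TNFRSF1A followed with 36.2 ± 4.91 TPM and TNFRSF10B, the TRAIL receptor DR5, with 31.6 ± 4.85 TPM, and the ranges of this pair overlapped. CASP8 (16.4 ± 2.06 TPM) and TRADD (10.3 ± 0.614 TPM) came next, each clear of its neighbours. TNFRSF10A, the TRAIL receptor DR4 (4.99 ± 0.95 TPM), CFLAR (4.94 ± 1.09 TPM), FAS (3.88 ± 0.530 TPM) and FADD (3.13 ± 0.835 TPM) formed a chain in which each gene overlapped the next. TNFRSF1B stood apart at 0.489 ± 0.163 TPM, with 8.67% of the listed genes below it and a median of 7.22 TPM over all of them. In Tan I the order of the means was the same except that CFLAR (4.87 ± 1.19 TPM) stood above TNFRSF10A (4.57 ± 1.33 TPM), which overlapped it. The place of CFLAR rests on a canonical transcript of 14612 bases, and a shorter transcript would give a higher TPM.

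**Figure D1:**
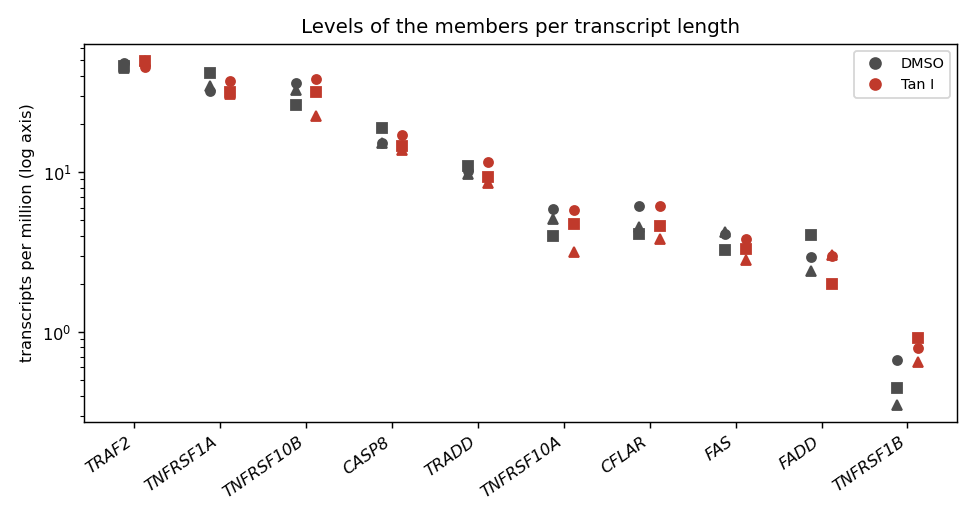
Level of each member in TPM (log axis) in the 3 DMSO and 3 Tan I libraries, computed with the canonical transcript length and ordered by the DMSO mean. TRAF2 stands highest at 46.3 TPM and TNFRSF1B lowest at 0.489 TPM in DMSO.

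Among the receptors, TNFRSF1B was higher with Tan I and FAS slightly lower, while TNFRSF1A, TNFRSF10A and TNFRSF10B overlapped between the groups. TNFRSF1B (chromosome 1, 12166991 to 12209228) had 29.8, 25.0 and 17.2 normalized counts in DMSO replicates 1 to 3 and 35.2, 47.4 and 41.3 in Tan I replicates 1 to 3. Every Tan I library stood above every DMSO library, and the means were 24.0 ± 6.39 and 41.3 ± 6.12 (SD, n = 3 each), a ratio of 1.72. The log2 fold change (Tan I over DMSO, on log2(normalized count + 1)) was 0.78 with a standard error (SE) of 0.30 and a 95% confidence interval from 0.07 to 1.49. These values rest on 22 to 32 reads per DMSO library and 31 to 45 per Tan I library. In TPM the groups met, with 0.669, 0.447 and 0.351 in DMSO against 0.791, 0.911 and 0.645 in Tan I. Of the monocyte or macrophage markers, which belong to cells that carry TNFR2, CD14, CSF1R and VCAN each overlapped between the groups, and the ranges of their sum, given above, lay side by side. CD163 and MARCO had no row under those symbols, and the part of these cells in the difference was not tested.

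TNFRSF1A, the main TNF receptor of most cells (chromosome 12, 6328757 to 6342114), had 849.5, 1377 and 999.4 normalized counts in DMSO and 967.6, 966.4 and 1163 in Tan I. DMSO replicate 2 was the highest library and DMSO replicate 1 the lowest, so the Tan I values lay inside the DMSO range. The log2 fold change was -0.03 (SE 0.19, 95% interval -0.48 to 0.41). Per kilobase, TNFRSF1A exceeded TNFRSF1B 48.4, 93.4 and 98.7 times in the DMSO libraries and 46.7, 34.6 and 47.8 times in the Tan I libraries. These ratios did not overlap, but DMSO replicate 1 lay next to the highest Tan I library.

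The death receptors proper varied little. TNFRSF10B had 1736, 1600 and 1729 normalized counts in DMSO and 1837, 1787 and 1562 in Tan I, with the highest and the lowest library both under Tan I. Its log2 fold change was 0.03 (SE 0.11, 95% interval -0.23 to 0.30), the narrowest interval of the 10. TNFRSF10A had 192.1, 163.7 and 181.3 normalized counts in DMSO and 188.6, 179.2 and 148.0 in Tan I (log2 fold change -0.06, SE 0.17). Tan I replicate 3 was the lowest library for both TRAIL receptors, which lie in a cluster on chromosome 8 with TNFRSF10C and TNFRSF10D between them. TNFRSF10D, a decoy receptor for TRAIL, stood at 496.7 ± 15.2 in DMSO and 461.5 ± 16.9 in Tan I without overlap, and TNFRSF10C, another, at 16.9 ± 3.93 and 13.4 ± 3.16 with overlap. The ratio of TNFRSF10B to TNFRSF10A per kilobase was 6.08 to 6.57 in DMSO and 6.55 to 7.10 in Tan I, so the groups overlapped.

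FAS, the receptor of FAS ligand (chromosome 10, 88953813 to 89029605), had 184.6, 184.0 and 208.6 normalized counts in DMSO and 171.0, 172.8 and 181.4 in Tan I. All Tan I libraries were below all DMSO libraries, by a small margin: the means were 192 ± 14.1 and 175 ± 5.51, and the log2 fold change was -0.13 (SE 0.15, 95% interval -0.47 to 0.21). In TPM the groups overlapped, with 3.28 to 4.25 in DMSO and 2.83 to 3.84 in Tan I. FAS shares its locus with STAMBPL1 on the same strand and ACTA2 on the other, and the strand setting of the counting is not given in the sources used here. Both neighbours overlapped between the groups, with means of 163.1 and 143.5 for STAMBPL1 and of 244.5 and 222.9 for ACTA2 in DMSO and Tan I.

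**Figure D2:**
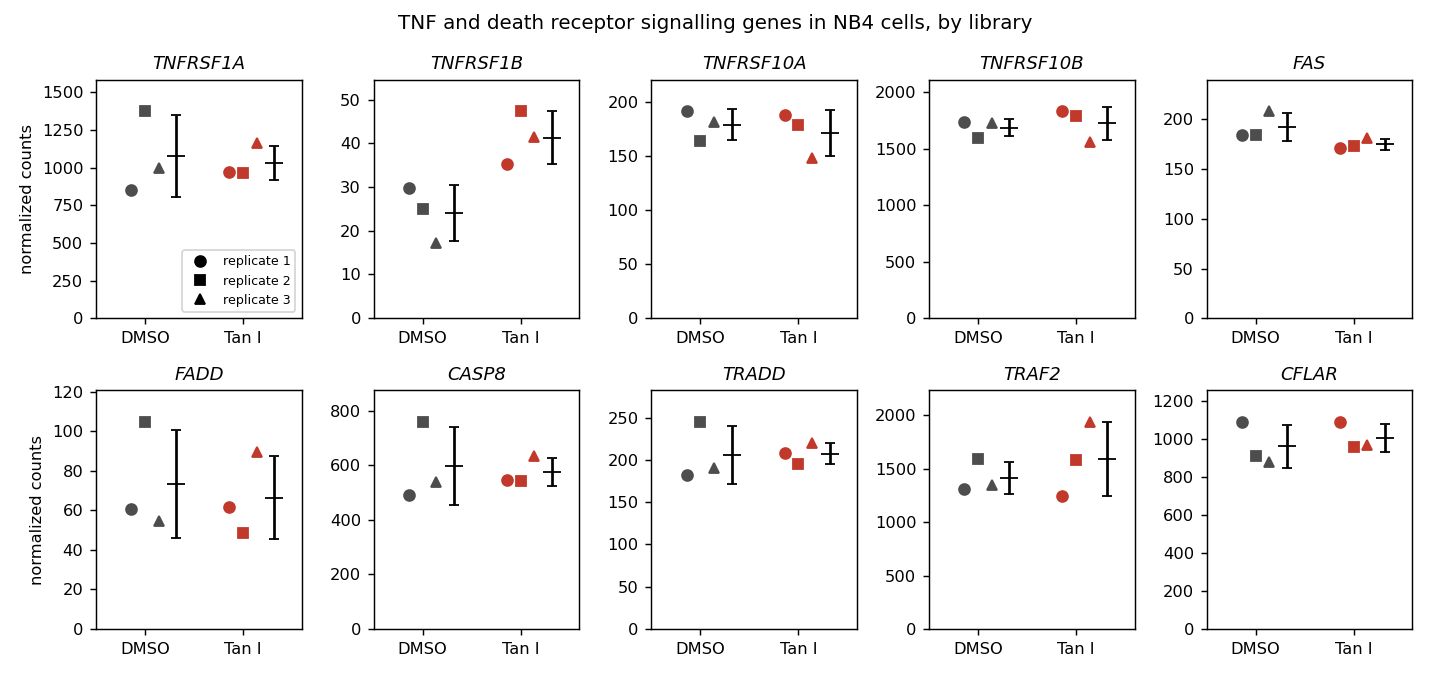
Normalized counts of each member in the 3 DMSO (grey) and 3 Tan I (red) libraries, 1 panel per gene with its own linear axis from 0, marker shape for the replicate number, and mean ± SD beside each group. The 3 Tan I points of TNFRSF1B (35.2 to 47.4) lie above its DMSO points (17.2 to 29.8), those of FAS lie just below, and the other 8 genes overlap.

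The adaptors overlapped between the groups in every case. TRAF2 (chromosome 9, 136881912 to 136926607) had 1314, 1589 and 1347 normalized counts in DMSO and 1244, 1584 and 1942 in Tan I, so Tan I held both the lowest and the highest library. Its log2 fold change was 0.15 (SE 0.18, 95% interval -0.27 to 0.57). TRADD, the TNFR1 adaptor (chromosome 16, 67154185 to 67159909), had 182.8, 245.6 and 190.7 normalized counts in DMSO and 208.2, 195.0 and 220.0 in Tan I, with a log2 fold change of 0.02 (SE 0.17). FADD, the death domain adaptor of FAS and the TRAIL receptors (chromosome 11, 70203296 to 70207390), was the noisiest member, with 60.6, 105.0 and 54.7 in DMSO and 61.6, 48.5 and 89.4 in Tan I. DMSO replicate 2 was the highest library for both TRADD and FADD. The interval of FADD, from -0.92 to 0.66 around a log2 fold change of -0.13, was the widest of the 10, on 46 to 109 reads per library.

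CASP8 and its inhibitor CFLAR kept overlapping ranges, as did their ratio. The genes lie side by side on chromosome 2, CFLAR from 201116154 to 201176687 and CASP8 from 201233443 to 201361836, with CASP10 between them. CASP8, the initiator caspase of these receptors, had 490.5, 759.9 and 538.4 normalized counts in DMSO and 545.4, 543.8 and 633.5 in Tan I (log2 fold change -0.03, SE 0.19). CFLAR had 1091, 912.1 and 880.6 in DMSO and 1087, 955.9 and 969.5 in Tan I (log2 fold change 0.07, SE 0.13). DMSO replicate 2 held the highest CASP8 value, while the highest CFLAR values were those of replicate 1 in both groups. The ratio of CFLAR to CASP8 per kilobase was 0.405, 0.218 and 0.298 in DMSO and 0.363, 0.32 and 0.279 in Tan I, with means of 0.307 ± 0.0935 and 0.32 ± 0.0421. The antisense neighbours FLACC1 (CASP8) and CFLAR-AS1 (CFLAR) had mean normalized counts of 15.7 and 8.76 in DMSO, and 9.46 and 7.47 in Tan I, and overlapped between the groups.

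Across the 10 members, 5 log2 fold changes were positive and 5 negative, 9 were below 0.25 in absolute value, and the median was -0.01. Over all 16887 genes tested the median was -0.00, 71.9% were below 0.25 in absolute value, and the median absolute value was 0.14, against 0.06 for the members. With limma, 1 member, TNFRSF1B, passed the unadjusted rule (p of at most 0.05 and a log2 difference of 0.25 or more in size), which 2.42% of all genes did (1.32% higher and 1.1% lower with Tan I). After Benjamini-Hochberg adjustment over all genes 0 members passed and 0 genes in all (0%), while 410 genes had an unadjusted p of at most 0.05. On the recovered reads, edgeR passed 0 genes after adjustment and DESeq2 passed 16, none of them a member. All Tan I libraries were above all DMSO libraries in 1 member, TNFRSF1B, and in 3.92% of all genes, and below them in 1 member, FAS, and in 3.97% of all genes. Since the members were picked by a rule that had this contrast in view, nothing is read from these counts.

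**Figure D3:**
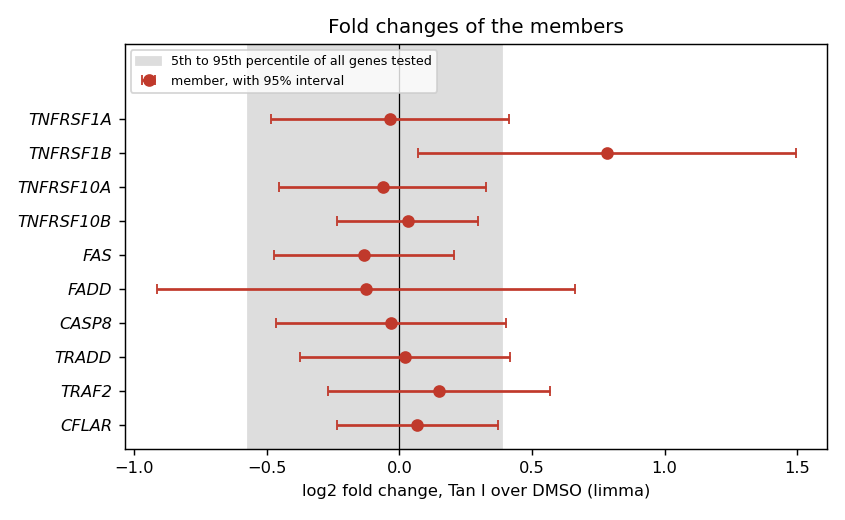
Log2 fold change of each member, Tan I over DMSO, with its 95% confidence interval from limma, on a linear axis. The interval of TNFRSF1B runs from 0.07 to 1.49, and those of the other 9 genes include 0.

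The log2 fold change of TNFRSF1B ran from 0.57 (without DMSO replicate 3) to 0.95 (without DMSO replicate 1) with single libraries left out. It no longer passed the unadjusted rule without DMSO replicate 2 (log2 fold change 0.83), DMSO replicate 3 (0.57), Tan I replicate 2 (0.68) or Tan I replicate 3 (0.78). It also did not pass with the replicate number as a block (0.78) or with a fold threshold of 1, and a minimum mean of 50 left it untested. With single libraries left out, the log2 fold change of TNFRSF1A ran from -0.19 to 0.16, that of CASP8 from -0.16 to 0.16 and that of FADD from -0.36 to 0.16. Each of these 3 turned positive without DMSO replicate 2. Without Tan I replicate 2 they were also positive, at 0.0099 for TNFRSF1A, 0.0057 for CASP8 and 0.0751 for FADD. TNFRSF1A (0.0090) and CASP8 (0.0036) were positive without Tan I replicate 1 as well. FAS (-0.16 to -0.07) and CFLAR (0.01 to 0.16) did not change sign in those 6 fits.

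Within the groups, 9 of the 10 members deviated to the same side in both libraries at the high end of the first principal component. Most of all genes did so too, by the shares that follow, so this is no trait of the members. TNFRSF1A, TNFRSF1B, FADD, CASP8, TRADD and TRAF2 were above their own group's mean in both DMSO replicate 2 and Tan I replicate 3, as were 42.4% of all genes. TNFRSF10A, TNFRSF10B and CFLAR were below it in both, as were 39.5% of all genes. DMSO replicate 2 was the highest of the 6 libraries for 4 members (TNFRSF1A, FADD, CASP8 and TRADD) and for 17.6% of all genes. With the score on the first principal component as a covariate, the SE of TNFRSF1A was 0.09 in place of 0.19 and that of TRAF2 0.07 in place of 0.18. The log2 fold changes in that fit were -0.13 for TNFRSF1A, 0.05 for TRAF2, -0.12 for CASP8, 0.10 for CFLAR, 0.07 for TNFRSF10B and -0.28 for FADD. TNFRSF1B stood at 0.76 (SE 0.28).

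**Figure D4:**
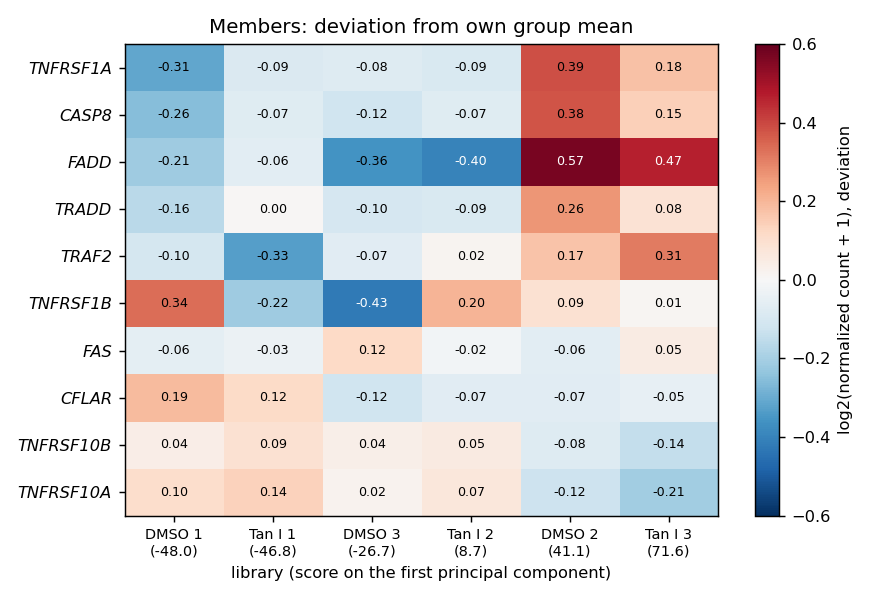
Deviation of each member's log2 value from its own group's mean, by library, with the libraries ordered by their score on the first principal component. TNFRSF1A, FADD, CASP8 and TRADD are above 0 in DMSO replicate 2 and Tan I replicate 3, and TNFRSF10A, TNFRSF10B and CFLAR are below 0 there.

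Of the other genes of the pathway, listed by role from general knowledge, those that passed the unadjusted rule were receptors, adaptors and NF-kB target genes, all higher with Tan I. Of 100 genes named, 90 were listed and 88 tested. With limma 8 of the 88 passed (9.09%, against 2.42% of all genes), and 0 passed after adjustment over all genes (adjusted p = 0.999 for each of the 8). The lists were chosen with earlier results of these data known. Nothing is therefore read from this share or from the counts by role below. Their median log2 fold change was 0.02, against -0.00 over all genes. On the recovered reads edgeR and DESeq2 also passed 0 of them after adjustment.

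Among the ligands 0 of 8 passed. TNF itself had 1797, 1229 and 2525 normalized counts in DMSO and 2052, 2470 and 2450 in Tan I, overlapping groups with a log2 fold change of 0.38 (SE 0.25). TNFSF10, which encodes TRAIL, stood at 230.6 ± 45.6 and 198.0 ± 34.98, and FASLG had no row under that symbol.

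Among the other receptors 2 of 13 passed. TNFRSF25 (DR3), a death domain receptor for TL1A, had 705.9, 812.9 and 750.9 normalized counts in DMSO and 908.0, 1057 and 1090 in Tan I (log2 fold change 0.43, SE 0.13), so the groups did not overlap. TNFRSF12A, the receptor of TWEAK, went from 148.8 ± 30.6 to 221.0 ± 33.1 (log2 fold change 0.58, SE 0.21) with overlapping groups. LTBR, the lymphotoxin beta receptor and the highest of the list by normalized counts, stood at 1307 ± 142.8 and 1456 ± 112.0.

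Among the adaptors and ubiquitin enzymes 2 of 26 passed. BIRC3 (cIAP2), a ubiquitin ligase that binds TRAF2, had 45.7, 79.9 and 64.9 normalized counts in DMSO and 94.8, 93.8 and 108.0 in Tan I (log2 fold change 0.66, SE 0.25). RBCK1 (HOIL-1), a subunit of the linear ubiquitin ligase, had 6108, 6365 and 6527 in DMSO and 6996, 8539 and 8628 in Tan I (log2 fold change 0.34, SE 0.13). Neither gene's groups overlapped in normalized counts. In TPM, RBCK1 stood at 127.4 ± 12.5 in DMSO and 151.4 ± 15.3 in Tan I, and BIRC3 at 0.675 ± 0.112 and 1.004 ± 0.124. TBC1D20, which overlaps RBCK1 on the other strand, was lower in every Tan I library, with means of 1552 and 1304. RIPK1, the kinase of the TNFR1 complex, stood at 192.2 ± 51.1 and 171.5 ± 18.7.

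None of the 12 caspases and necroptosis effectors tested and none of the 13 receptor modifiers passed, and every one of them was below 0.25 in absolute log2 fold change. DFFA, the inhibitor of the caspase-activated DNase, had a log2 fold change of -0.19 (SE 0.14), and MADD, a death domain protein that binds TNFR1, one of 0.00 (SE 0.18). RIPK3 had no row under that symbol.

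Of the TNF induced NF-kB target genes 4 of 16 passed, as did 2.42% of all genes. In this list 12 of 16 log2 fold changes were positive, as were 49.7% over all genes, and the median was 0.30. The list was chosen with earlier results of these data known, so these counts are a description only. CXCL8, the neutrophil chemoattractant, had 2143, 1526 and 2178 normalized counts in DMSO and 2693, 3407 and 3415 in Tan I (log2 fold change 0.71, SE 0.18). Every Tan I library was above every DMSO library for CXCL8. ICAM1, an adhesion molecule, went from 305.1 ± 70.5 to 440.8 ± 41.6 (log2 fold change 0.55, SE 0.19), and NFKB2, an NF-kB subunit, from 2612 ± 155.6 to 3269 ± 321.9 (0.32, SE 0.12), both without overlap in normalized counts. In TPM, NFKB2 stood at 64.6 ± 8.16 in DMSO and 75.6 ± 7.88 in Tan I, and ICAM1 at 7.54 ± 0.862 and 10.35 ± 0.948. NFKBIA, the inhibitor of NF-kB, went from 940.2 ± 76.8 to 1248 ± 238.5 (0.39, SE 0.17) with overlapping groups. CCL5, the chemokine with the highest counts of the list, stood at 7540 ± 1017 and 9144 ± 2430 (0.25, SE 0.21).

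**Figure D5:**
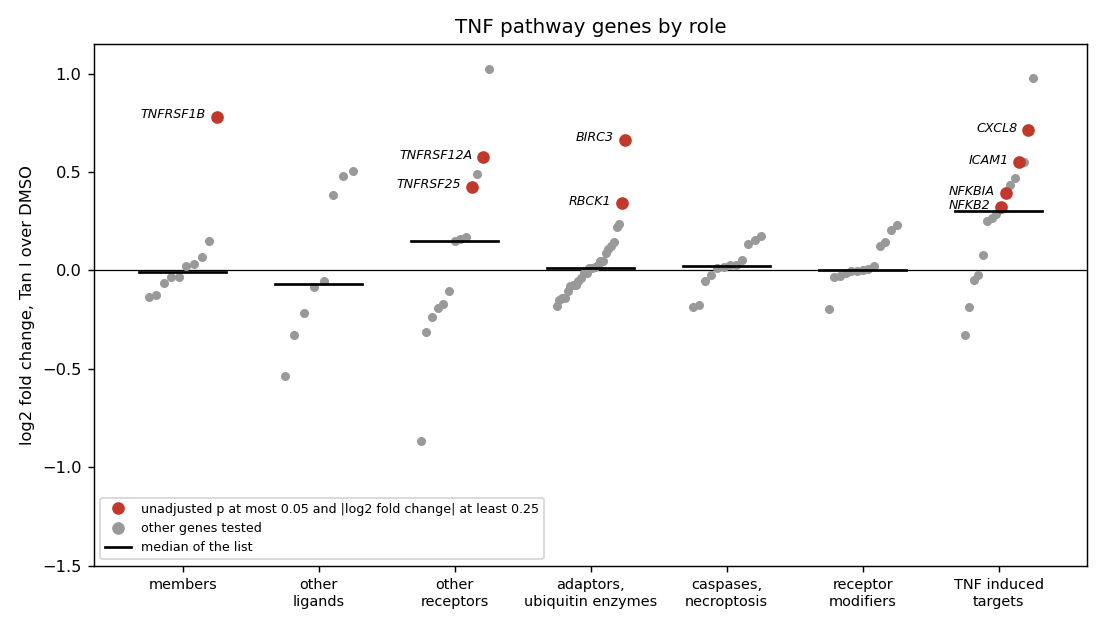
Log2 fold change, Tan I over DMSO, of the 10 members and the 88 other pathway genes tested, by role, with a black line at each list's median. Red points passed the unadjusted rule: TNFRSF1B among the members, and 8 other genes, 4 of them among the TNF induced targets, whose median was 0.30.

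At the fold threshold of 1, 0 pathway genes passed. Under the 18 alternatives that keep the threshold of 0.25, CXCL8 and TNFRSF25 passed in all 18, TNFRSF12A, BIRC3 and ICAM1 in 14, RBCK1 and NFKB2 in 13 and NFKBIA in 11. Without DMSO replicate 1, Tan I replicate 2 or Tan I replicate 3, 2 pathway genes passed, CXCL8 and TNFRSF25, and without DMSO replicate 3 there were 4, which added NFKB2 and TNF. Without Tan I replicate 1 there were 16. With the score on the first principal component as a covariate, limma's adjusted p was 0.0137 for CXCL8, 0.0216 for TNFRSF25 and 0.0455 for RBCK1. In that fit 194 of all genes passed after adjustment, against 0 in limma without the score. The score was computed from the same genes and libraries that were then tested, so these p-values are a description only.

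The genes whose pattern over the 6 libraries was most like that of TNFRSF1B, by the root mean square distance between log2 values centred on each gene, were LAT (0.07), AC011447.7 (0.13), HDC (0.20), AL354798.1 (0.20) and VAC14-AS1 (0.21). LAT, an adaptor of antigen receptor signalling, had 43.8, 40.5 and 28.9 normalized counts in DMSO and 54.7, 68.5 and 61.3 in Tan I. HDC, which makes histamine, had 9544 to 11540 in DMSO and 15140 to 18870 in Tan I. In AL354798.1 the groups overlapped, and in the other 4 every Tan I library was the higher. The likeness was measured over 6 libraries of which 3 share the treatment.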

How the data were processed

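RNA-seq was made from NB4 cells after 3 days with DMSO or 10 μM Tan I, with 3 libraries per group, and groups were taken from the sample labels. According to the methods, the authors used STAR and GRCh38 for alignment, dropped multi-mapping reads, counted reads per gene with featureCounts and normalized with DESeq2; versions, annotation release and strand setting are not given in the sources used here. The authors deposited a table of 18625 genes whose signal values are read counts divided by 1 size factor per library. Its columns of the authors' own comparison (fold change, standard error, test statistic and p-values) were not used. In each library 100% of the values were whole multiples of 1 read, within a tolerance of 0.01, so reads were recovered for count tests.

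Treatment was tested with limma 3.58.1 under R 4.3.3 (lmFit, eBayes with trend) on log2 values, after adding a pseudocount of 1, for 16887 genes averaging 10 or more (1738 were left out). Benjamini-Hochberg adjustment covered all of them. A call needed p of at most 0.05 and a log2 fold change of 0.25 or more in size. The fold change on this scale understates that of low genes. An exact permutation test of 3 against 3 libraries cannot go below 0.1 and was not used. The alternatives were edgeR 4.0.16 with TMM or RLE scaling and DESeq2 1.42.0 on the recovered reads (1965 genes had no adjusted p in DESeq2), pseudocounts of 0.1 and 10, no filter, a mean of at least 50, quantile normalization, equal totals, eBayes without trend, the replicate number as a block, the PC1 score (first principal component) as a covariate, leaving out each library, and a fold threshold of 1. The fits were tested on simulated data with planted fold changes and noise drawn separately for each gene and library. Those data held no gradient shared between libraries like the first principal component here. That test therefore cannot show how the fits perform on these libraries.

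TPM, positions and overlaps used GENCODE 44, which holds 99.6% of the identifiers, and promoters are from RefSeq (GRCh38.p14). The members and the gene lists were chosen with earlier results of these data known. The text names all members, in each role list the gene with the highest mean and every gene passing the unadjusted rule, and the 5 genes most like TNFRSF1B. TNFSF10, TNFRSF10C, TNFRSF10D and RIPK1 were named for their role in the pathway after their values were seen. A further gene of the pathway is not reported here.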

Additional observations from a re-analysis of the deposited data

How the results depend on the processing

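The count of members past the unadjusted rule, 1, became 0 with a mean of at least 50 (TNFRSF1B is then not tested), with the replicate block and with a fold threshold of 1 on the log2 scale, and ran from 0 to 1 with single libraries left out. The count over all genes, 408, became 1496 with the first principal component score as a covariate and 49 with the larger fold, and ran from 160 (without Tan I replicate 2) to 1496 (without Tan I replicate 1). After adjustment it was 16 with DESeq2 and 194 with the covariate, against 0. For the other pathway genes the count of 8 became 17 with the covariate and 0 with the larger fold, ran from 2 to 16 with single libraries left out, and after adjustment was 3 with the covariate against 0. No result reversed its direction past a threshold. The sign of the log2 fold change held under every alternative that tested it for TNFRSF1B, FAS and CFLAR, and differed under 1 to 5 alternatives for each of the other members. The replicate number as a block gave 10 other pathway genes. Libraries of the same number correlated at 0.75, -0.09 and -0.45 in their deviations from the group means. By chi-square per gene between reads, the 2 libraries of number 1 were the closest of all pairs (5.89, against 36.0 and 59.4 for numbers 2 and 3). Deviations from a mean of 3 libraries depend on each other, so these values cannot settle whether the numbers pair the samples. Equal totals moved the median log2 fold change of all genes to -0.06. Among the members, depth limits TNFRSF1B, at 22 to 45 reads per library, and FADD most. The causes of these differences were not tested.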

Other observations

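Of the 88 other pathway genes tested, 8 had groups apart with Tan I the higher (3.92% of all genes did) and 3 with Tan I the lower (3.97%). Besides the 6 of these described above, the higher ones were TNFRSF18 (GITR, a costimulatory receptor), at 10.8 ± 3.71 (DMSO) and 23.7 ± 11.5 (Tan I) normalized counts, and SPATA2, the bridge between CYLD and the linear ubiquitin ligase, with 303.5 ± 19.7 and 354.5 ± 36.1. The TNFRSF18 values rest on only 15, 7 and 15 reads in DMSO replicates 1 to 3 and 16, 35 and 14 in Tan I replicates 1 to 3. The lower ones were TNFSF14 (LIGHT), with 219.1 ± 24.4 and 173.7 ± 7.80, TAB2, an adaptor of the kinase TAK1, with 989.9 ± 91.2 and 888.8 ± 35.5, and the TRAIL decoy receptor TNFRSF10D. None of these 5 passed the unadjusted rule in limma before any alternative setting, and they were chosen after their values were seen. Under the alternatives, TNFRSF18 passed with quantile normalization, with eBayes without trend and with edgeR under both scalings. It also passed with the first principal component score as a covariate and without Tan I replicate 1. TNFSF14 passed with equal totals and with that covariate. TNFRSF9 and CD40 were listed but fell under the minimum for testing, with means of 6.42 and 9.16 in DMSO and 6.61 and 6.27 in Tan I.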
